A study of Rattus norvegicus with 10 samples.

Results

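A list of 8 receptor genes for hormones and peptides of hunger and satiety was examined. Of these, 6 were measured in the RNA-seq table of the arcuate nucleus (ARC) of rat dams at parturition, out of 12828 genes in all. These genes are *Npy1r*, *Npy2r*, *Npy5r*, *Mc3r*, *Mc4r* and *Ghsr*. Their rows were found by gene symbol. The remaining genes, *Lepr* and *Glp1r*, have no row in the table used here and were not analysed here. The RNA-seq of the study compared a pregnancy diet with 5X folic acid (5X-FA) and one with 5X methylfolate (5X-MTHF). It used Wistar mother rats, with 5 dams in each group, and the tissue was taken when they gave birth. Both groups received the raised folate dose. The study also fed dams the recommended dose of each form, but those dams were not part of the RNA-seq. The ARC was cut free hand from frozen coronal slices, so that neighbouring tissue may be part of each sample.

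The values are the authors' average log2 CPM, 1 value per gene over all libraries. CPM is the read count of a gene scaled to the total count of its library, and on the log2 scale a step of 1 is a doubling. The 10 columns of values per library carry no label that ties them to a dam or a diet, and they were not used. No value per dam, no spread between dams and no depth per library is therefore given, no test between the diets was run, and it was not asked whether neighbours in the order of the receptors differ beyond the spread between libraries. The table as a whole ran from an average log2 CPM of -2.07 to 14.56, with a median of 4.94. The study's methods describe a minimum read count for a gene to be kept. The median and the percentiles below are therefore over the genes kept in the table, not over all rat genes.

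The ARC lies next to the median eminence, where hormones of the blood reach neurons directly. One group of its neurons makes agouti-related peptide and neuropeptide Y and promotes feeding. Another makes pro-opiomelanocortin, the precursor of alpha-MSH, and restrains feeding. Leptin from fat, ghrelin from the stomach and GLP-1 from the gut act on these neurons, whose peptides in turn act on melanocortin receptors and neuropeptide Y receptors there and in the hypothalamic nuclei to which they project.

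All 6 receptors lay below the median of the table by reads. Their average log2 CPM ran from 1.50 for *Ghsr* to 4.42 for *Npy1r*, with a median of 2.56. Their median percentile among the 12828 genes was 11.4. Together the 6 genes summed to 48.3 CPM. In whole tissue, fewer cells with a receptor and less receptor RNA per cell cannot be told apart.

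**Figure D1:**
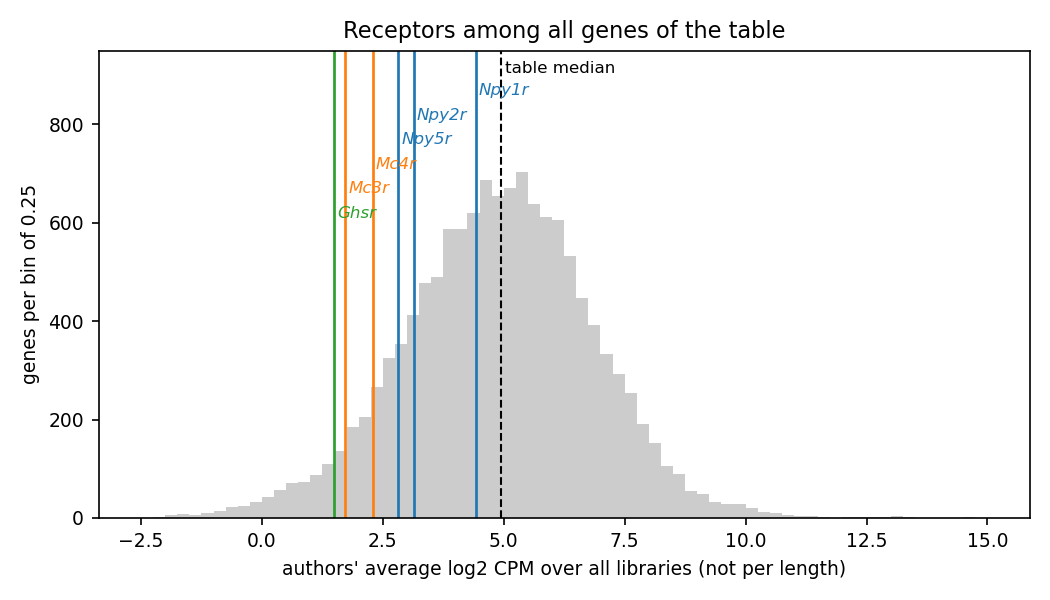
Histogram of the authors' average log2 CPM (x axis, not per length) of the 12828 genes, in genes per bin (y axis), with a coloured line at each of the 6 receptors and a dashed line at the median. All 6 lines stand left of the median of 4.94, the neuropeptide Y receptors (blue) to the right of the melanocortin receptors (orange) and the ghrelin receptor (green).

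The neuropeptide Y receptors had the most reads. *Npy1r*, a Gi-coupled receptor through which neuropeptide Y stimulates feeding, had an average log2 CPM of 4.42, or 21.4 CPM, at percentile 38.9 of the table. *Npy2r*, known as the autoreceptor on neurons that release neuropeptide Y, had an average log2 CPM of 3.14, or 8.82 CPM, at percentile 17.6. *Npy5r*, another receptor for the feeding action of the peptide, had an average log2 CPM of 2.82, or 7.05 CPM, at percentile 13.9. *Npy1r* thus had 2.42 times the reads of *Npy2r* and 3.03 times those of *Npy5r*, whereas *Npy2r* and *Npy5r* differed by 0.32 on the log2 CPM scale. The Y4 and Y6 receptor genes, *Npy4r* and *Npy6r*, have no row in the table used here.

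The melanocortin receptors followed. *Mc4r*, the receptor at which alpha-MSH lowers food intake and agouti-related peptide blocks it, had an average log2 CPM of 2.29, or 4.90 CPM, at percentile 8.84. *Mc3r*, a receptor of the same ligands that is known from the ARC itself, had an average log2 CPM of 1.72, or 3.30 CPM, at percentile 5.25. The difference between the pair was 0.57 on the log2 CPM scale, a ratio of 1.48 in reads. *Mc1r* and *Mc5r*, the melanocortin receptors of pigment cells and of exocrine glands, have no row in the table used here.

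*Ghsr*, the receptor for ghrelin, had the fewest reads of the 6 genes. Its average log2 CPM was 1.50, or 2.83 CPM, and 561 genes of the table, or 4.37% of it, had a lower value. *Mc3r* exceeded it by 0.23 on the log2 CPM scale. *Npy1r*, at the other end of the order, had 7.55 times as many reads as *Ghsr*.

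Longer transcripts give more reads at the same number of molecules, so this order is one of reads and not of transcripts. The table gives the span of each gene in Rnor_6.0 but no transcript length. CPM divided by the span in kilobases is a lower limit of the level per length, since the exons cannot be longer than the span that holds them. All 6 genes are protein-coding. *Npy2r* lies on chromosome 2 from 181530832 to 181531978, a span of 1147 bases. *Mc3r* lies on chromosome 3 from 170252901 to 170253998, a span of 1098 bases, and *Mc4r* on chromosome 18 from 62612838 to 62614725, a span of 1888 bases.

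Per kilobase of span, *Npy2r* came first among the 6 receptors, at 7.69 CPM. *Mc3r* followed at 3.01 CPM and *Mc4r* at 2.60 CPM, so that the melanocortin receptors changed places against the order by reads. *Npy2r* stood 2.56 times above *Mc3r* and 2.96 times above *Mc4r* on this scale. These spans are short, but the table does not say how much of each is exon.

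The other receptor genes have longer spans, and their values per kilobase of span are looser limits. *Npy1r*, on chromosome 16 from 24779477 to 24788740, spans 9264 bases and reached at least 2.31 CPM per kilobase. *Npy5r*, on the same chromosome from 24797124 to 24805079, spans 7956 bases and reached at least 0.89. *Ghsr*, on chromosome 2 from 113066885 to 113070261, spans 3377 bases and reached at least 0.84. An order by transcripts between these genes and the short ones cannot be given from spans.

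**Figure D2:**
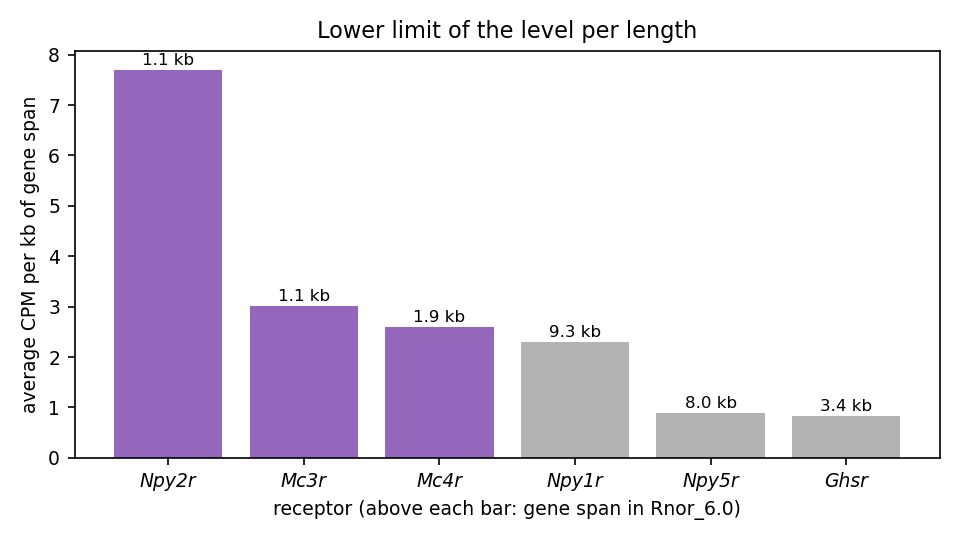
Average CPM per kilobase of gene span (y axis) for the 6 receptors, with the span written above each bar; purple marks the 3 genes with the shortest spans, and every bar is a lower limit of the level per length. *Npy2r* stands highest at 7.69, and *Npy5r* and *Ghsr* lowest at 0.89 and 0.84.

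None of the 6 spans overlaps another gene of the table. *Npy1r* and *Npy5r* are each other's nearest neighbours in the table, with 8383 bases between their spans. They differed by 1.60 on the log2 CPM scale. For the other receptors the nearest gene was 39985 bases away or more.

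Folate carries methyl groups for many reactions, among them the methylation of cytosine in DNA, which in mammals falls mostly on CpG. The sequence before the gene start is shown for the receptor with the most reads, the one with the highest value per kilobase of span and the one with the fewest reads, to let their CpG content be seen. Methylation was not measured. The sequences are from the RefSeq promoter table of build GRCr8, in which 8 of the 8 receptor genes were matched by symbol, and they are not on the build of the expression table. Each holds the 250 bases before the start, on the strand of the gene, and capitals mark CpG.
*Npy1r*, chr16:27813388-27813637, minus strand: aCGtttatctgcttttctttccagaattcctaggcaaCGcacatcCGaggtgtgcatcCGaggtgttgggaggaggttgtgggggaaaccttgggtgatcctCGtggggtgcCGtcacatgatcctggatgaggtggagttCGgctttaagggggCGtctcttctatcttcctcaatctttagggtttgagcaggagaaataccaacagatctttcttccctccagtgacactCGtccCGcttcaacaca
*Npy2r*, chr2:170203101-170203350, minus strand: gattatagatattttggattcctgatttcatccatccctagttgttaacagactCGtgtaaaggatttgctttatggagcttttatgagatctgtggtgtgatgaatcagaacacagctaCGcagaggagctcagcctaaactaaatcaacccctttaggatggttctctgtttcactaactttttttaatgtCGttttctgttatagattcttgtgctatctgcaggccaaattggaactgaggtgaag
*Ghsr*, chr2:112196908-112197157, plus strand: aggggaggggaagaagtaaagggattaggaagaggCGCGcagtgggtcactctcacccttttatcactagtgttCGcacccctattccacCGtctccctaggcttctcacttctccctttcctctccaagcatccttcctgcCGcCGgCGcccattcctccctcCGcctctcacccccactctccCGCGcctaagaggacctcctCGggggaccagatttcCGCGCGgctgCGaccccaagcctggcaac

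The window of *Ghsr* holds 15 CpG, a count that 25.8% of 33469 promoter windows of the same length reach, and 61.6% of its bases are G or C. The window of *Npy1r* holds 10 CpG, a count that 35.9% of the windows reach. That of *Npy2r* holds 3, which 71.4% of the windows reach, and its G and C share is 38.8%. *Npy5r*, *Mc3r* and *Mc4r* hold 5 each, the median over all windows. Among these 6 genes the CpG count therefore did not follow the reads, as the gene with the fewest reads has the most CpG. With 6 genes this is a description only. Each start is that of an annotated gene model, and whether transcription begins there was not tested.

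The ligands and partners of the receptors were read from the same table. The list of 48 related genes was matched by symbol, and 31 have a row. Of 10 ligand and peptide genes 3 have a row. *Agrp*, which blocks *Mc3r* and *Mc4r*, had an average log2 CPM of 1.42 and lay at percentile 4.11, close to *Ghsr*. *Pomc*, the source of the agonist of both receptors, had 4.67, and *Cartpt*, the gene of a satiety peptide, had 6.02. Which cells the *Cartpt* reads came from was not tested. *Npy*, *Lep*, *Ghrl*, *Gcg*, *Pyy*, *Ppy* and *Asip* have no row in the table used here. A missing row gives no level, for these genes or any other named here, and does not show that a gene is not expressed. Why *Npy*, an ARC marker, has none was not tested.

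Of 18 genes listed as related receptors 11 have a row, from 1.89 for *Prlhr* to 6.67 for *Calcr* on the log2 CPM scale. *Calcr* encodes the calcitonin receptor, which forms amylin receptors with RAMP proteins. The list includes *Ramp1*, *Ramp2* and *Ramp3*, which encode RAMP proteins and not receptors, at 4.51, 4.37 and 2.74. The median of the genes with a row was 4.37, the value of *Ramp2*. Of the 11, RAMP genes included, 4 lay above the table median, namely *Calcr*, *Adipor1*, *Insr* and *Adipor2*. Of the 6 receptors described here 0 did. Which genes fell in which list was a choice, so this contrast is between lists and not between kinds of receptor.

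Most signaling partners had more reads than any of the receptors. For the 13 of 15 partner genes with a row the table holds 14 rows, since *Gnas*, the G protein to which melanocortin receptors couple, has one row for each of a pair of overlapping gene models. Of these rows 13 lay above the table median. The exception was *Ptpn1*, a phosphatase that dampens leptin and insulin signaling, at 4.27, below *Npy1r* at 4.42. *Mrap2*, an accessory protein of *Mc4r* and *Ghsr*, had an average log2 CPM of 5.94. *Jak2* and *Stat3*, through which the leptin receptor signals, had 6.08 and 6.47. *Leprot*, a gene known to share its promoter region with *Lepr*, had 5.28. *Socs3*, an inhibitor of leptin receptor signaling, has no row in the table used here.

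Among genes that process the feeding peptides, 4 of 5 have a row. *Cpe*, *Pam* and *Pcsk2*, enzymes that trim and amidate peptide precursors, had an average log2 CPM of 10.74, 8.89 and 7.81. *Prcp*, an enzyme that inactivates alpha-MSH, had 3.90.

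**Figure D3:**
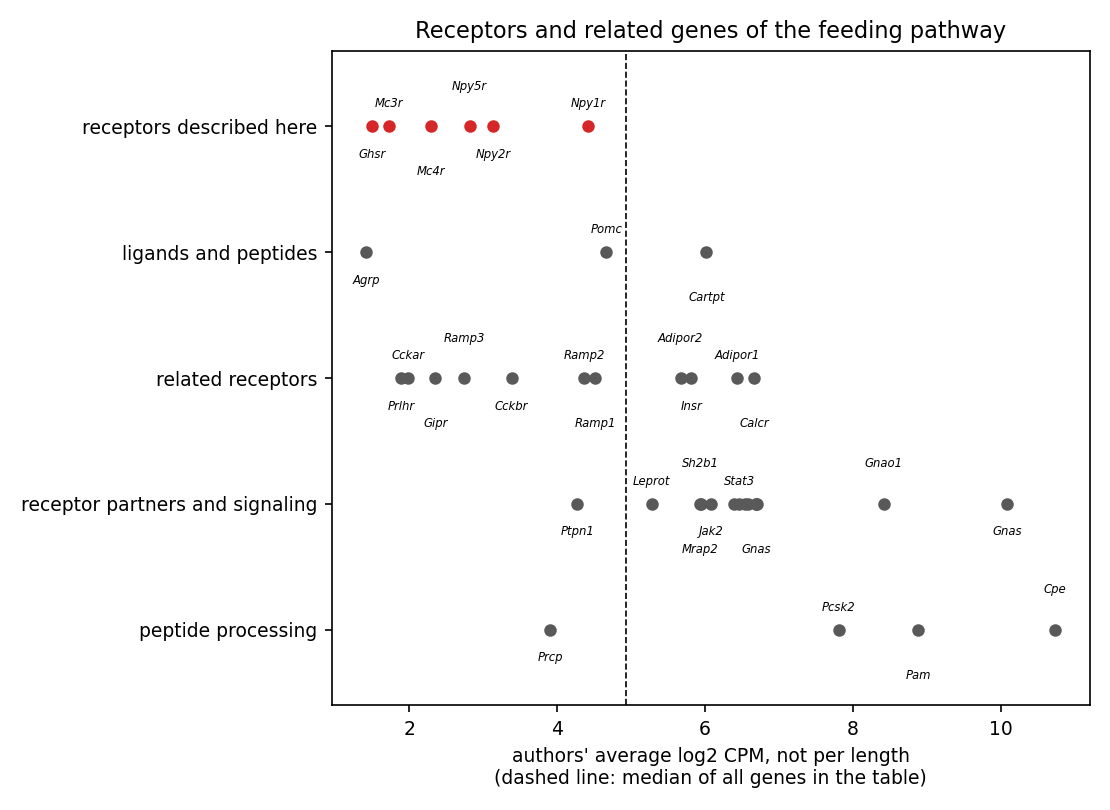
Authors' average log2 CPM (x axis, not per length) of the 6 receptors (red) and of the related genes (grey), 1 point per row of the table and 1 line per role, with a dashed line at the table median and some crowded partner points left unnamed. The receptors all lie left of the dashed line, while 13 of 14 partner rows lie right of it.

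The labelled tissue was set against markers, of which 52 of 61 have a row. Of 8 markers of ARC neurons 7 have a row, and 0 of these lay above the table median. They were *Pomc* at 4.67, *Tac3* at 4.34, *Tbx3* at 2.45, *Prlr* at 2.21, *Agrp* at 1.42, *Ghrh* at 1.02 and *Kiss1* at 0.08 on the log2 CPM scale. Of 5 markers of the tanycytes and ependymal cells that line the third ventricle beside the ARC 3 have a row, *Crym* at 5.53, *Ccdc153* at 3.10 and *Rax* at 0.08. The values of the 6 receptors all fell within the range of the ARC markers. They also fell within that of the tanycyte and ependymal markers, 0.08 to 5.53, so this is not particular to ARC neurons.

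Markers of neighbouring regions were also present, at values that varied widely within each list. *Pmch*, the melanin-concentrating hormone gene of the lateral hypothalamus, had an average log2 CPM of 9.24, and *Hcrt*, the orexin gene of the same region, had 5.68. Of the paraventricular and supraoptic markers, *Oxt*, *Avp* and *Trh* had 8.33, 7.96 and 5.96, whereas *Sim1* and *Crh* had 4.54 and 2.76, below the table median. The markers of the ventromedial hypothalamus were *Adcyap1* at 6.04, *Fezf1* at 4.01 and *Nr5a1* at 1.88, and the 4 thalamic markers ran from 3.19 for *Lef1* to 7.43 for *Calb2*. All 7 markers of striatum have a row, with a median of 5.37 and a range from 4.26 to 7.07. Of the cortex and hippocampus markers 5 of 7 have a row, with a median of 3.34 and a range from 2.13 to 7.17, the highest being *Slc17a7*. The lowest was *Neurod2*, whose row is labelled a pseudogene. Of 5 markers of choroid plexus and pituitary 2 have a row, *Cga* at 4.95 and *Ttr* at 3.06. The receptors described here are expressed in several of these regions too, and the part of each region in their values was not tested.

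**Figure D4:**
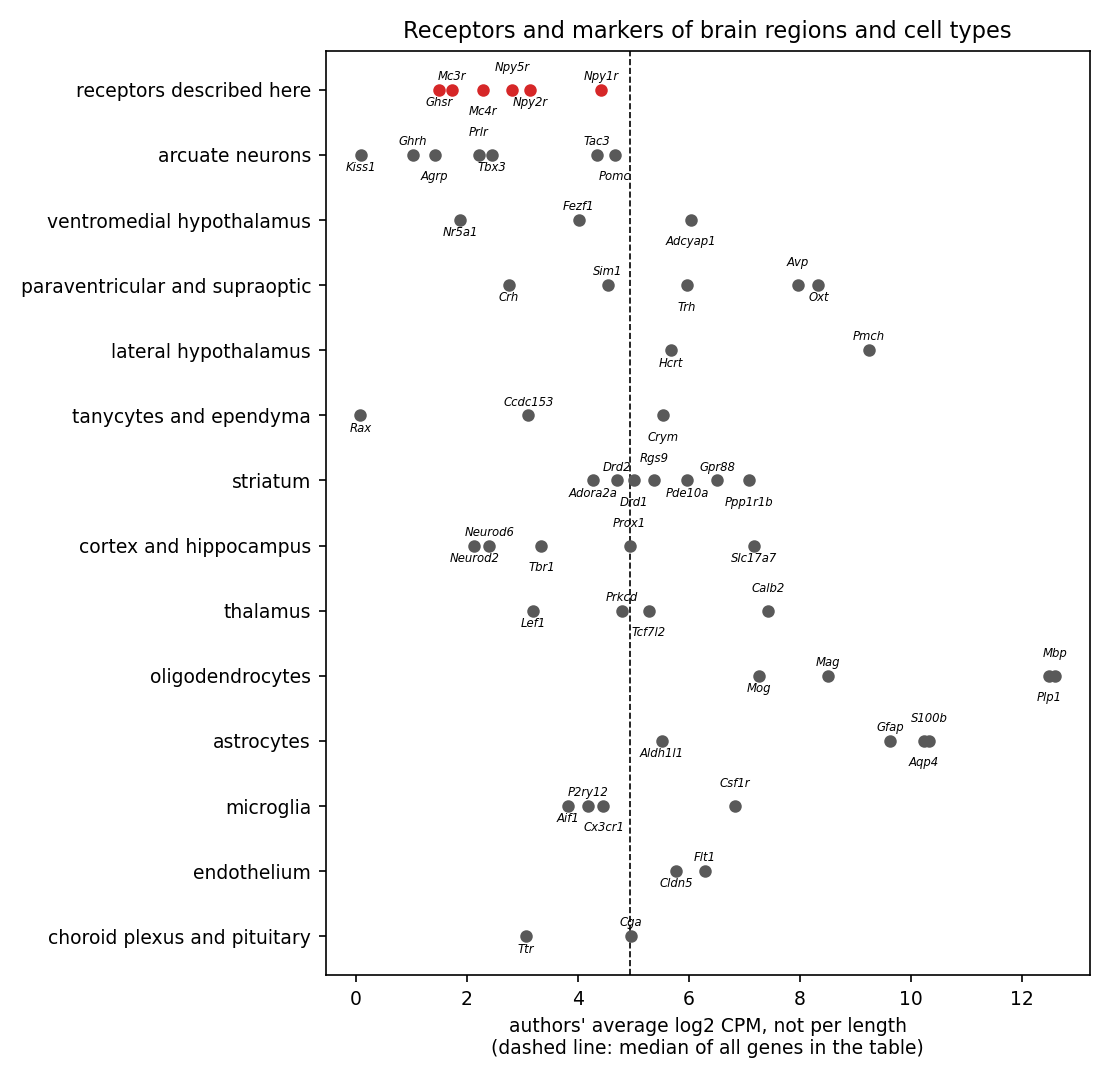
Authors' average log2 CPM (x axis, not per length) of the 6 receptors (red) and of 52 markers (grey), 1 line per brain region or cell type, with a dashed line at the table median. The 7 ARC markers lie between 0.08 and 4.67, to the left of the dashed line, and the 7 striatal markers between 4.26 and 7.07.

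Among cell type markers, those of oligodendrocytes and astrocytes had the highest values, with medians of 10.49 and 9.92 on the log2 CPM scale. The median of the 4 microglial markers was 4.32. Each of the 6 receptors had fewer reads than the lowest marker of oligodendrocytes, *Mog* at 7.26, and of astrocytes, *Aldh1l1* at 5.51.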

How the data were processed

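Poly-A RNA of the ARC of 10 dams was sequenced. As the study's methods and the submitters' notes state, reads were trimmed with Trim Galore 0.5.0, aligned with STAR 2.6.0c to Rnor_6.0 with Ensembl models and counted with HTSeq 0.6.1p2. The column used was deposited by the authors as logCPM, taken as a log2 value because 2 to its power sums to 1002152 over the table, near the total that CPM values have. The sources used here give neither the prior count behind it nor whether it was averaged before or after the log. A CPM value in the text is 2 to the power of this column. Of the other columns, 4 hold the authors' own comparison of the diets (a fold change, a test statistic, its p-value and an adjusted one) and were not used, and 10 hold values per library under names that match no label, and were not used either. The tests planned between the diets were therefore not run.

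Receptors, related genes and markers were matched by symbol; the members and lists were chosen with earlier results of these data known. The receptors were named in advance, with *Agrp*, *Npy*, *Pomc*, *Cartpt*, *Mrap2*, *Jak2*, *Stat3* and *Socs3*; markers and other related genes in the text were chosen after their values were seen. A percentile is the share of genes of the table with a lower value. It was tested on simulated data. In the promoter table, ATG stands at the start of 1496 plus-strand and 1516 minus-strand windows, against 244 and 233 with CAT at the mirrored place, as for sequences given along the gene on either strand. The calculations ran in Python 3.11.15 (pandas 2.3.3; scipy 1.17.1; numpy 2.4.6), and figures were drawn with matplotlib 3.10.9.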

Additional observations from a re-analysis of the deposited data

How the results depend on the processing

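The percentiles of the receptors depended on the genes they were taken over. The median of the 6 was 11.4 among all rows, 9.64 among the 12383 protein-coding rows and 8.75 among the 12462 rows whose log2 CPM reached 1. The latter setting lowers every percentile by construction, since all 6 receptors lie above it. It moved *Ghsr* most, from 4.37 to 1.56, and *Mc3r* from 5.25 to 2.47. Among protein-coding rows these were 3.08 and 3.88. The order of the receptors cannot change with the set of genes. All 52 markers with a row had an average of at least 1 CPM, so that leaving out lower ones changed nothing. No paired analysis was possible because no column could be matched to a dam. Other choices of pseudocount, filter, scaling, tool, left-out dams and median against mean over dams were not run, since the columns per library were left out of every step. One average over both diets cannot show a difference between them, and without depth per library no counting error can be given. The receptors with the fewest reads, *Ghsr* and *Mc3r*, are those for which counting error is largest relative to the value.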
